A study of Mus musculus with 21 samples.

Results

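Oligodendrocyte and myelin genes were read across every library of a mouse hippocampus RNA sequencing series. The set is 37 genes, chosen by symbol, out of the 24411 genes listed in each of the 2 deposited tables, and all 37 were found in both tables. The series asks how the age of CD8+ T cells in the blood, or loss of these cells, bears on the hippocampus. All mice were male and wild type, and RNA came from the hippocampus on 1 side of the perfused brain. In the transfer experiment, B6.SJL-Ptprca Pepcb/BoyJ recipients aged 4 months were given an antibody against CD8a on days -11 and -7, which targets the host's CD8+ T cells. They then received, by tail vein, CD8+ T cells taken from spleen and blood of C57BL/6J donors. Donors were 22 to 28 months old for 1 group (aged T, n = 5 libraries) and 3 to 4 months old for the other (young T, n = 6 libraries), so both groups carry the antibody treatment. These ages are from the treatment protocol, and the series' design text gives 22 months for the aged donors and for the aged mice of the depletion experiment. The depletion experiment used mice of 22 to 24 months, dosed every 4 days with the CD8a antibody (n = 5 libraries) or with a rat IgG2b isotype control (n = 5 libraries). The labels name each library separately but do not state that each came from a separate mouse, so p-values measure the spread between these libraries.

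Oligodendrocytes wrap axons of the central nervous system in myelin, a stack of membrane held together by a small number of very abundant proteins and rich in galactolipids. Their development is driven by the transcription factors Olig1, Olig2, Sox10 and Myrf, and their precursors carry other genes, such as Pdgfra and Cspg4. In the hippocampus most of them lie in the fibre layers and in the white matter tracts that border it, the alveus, the fimbria and the corpus callosum. In tissue taken whole, fewer cells of a type and less RNA per cell cannot be told apart.

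Recovered read totals were 12361933 to 15055422 in aged T, 11232442 to 14911138 in young T, 9957822 to 12136146 in CD8a antibody libraries and 11103024 to 14375029 in IgG2b libraries. Values below are the authors' normalized counts, which are reads divided by 1 size factor per library. A log2 difference is the difference of group means of log2(normalized count + 1), treated minus control, with its standard error (SE), from limma, with a Benjamini-Hochberg adjusted p over all genes tested in that experiment. Treated means aged T or the CD8a antibody, and control means young T or IgG2b. Genes with a mean of at least 10 were tested, 14162 in the transfer and 13939 in the depletion experiment, and all 37 members were among them. This scale can misstate changes of weakly expressed genes, in either direction. The weakest member, Sgk2, averaged 9.24 normalized counts in the IgG2b group. Its log2 difference in the depletion experiment was 1.87 on this scale and 1.29 in the authors' deposited table, with the sign turned. All 8 neuronal and all 8 astrocyte markers had a mean of at least 100 normalized counts in both experiments. These are general markers of brain cells, so they cannot check the hippocampus label or the dissection.

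The members made up a small share of the reads, and that share varied widely between libraries of the same group. They took 0.556 ± 0.126% of reads in aged T (SD, n = 5, range 0.376 to 0.696) and 0.461 ± 0.0892% in young T (SD, n = 6, range 0.345 to 0.598). With the CD8a antibody they took 0.702 ± 0.131% (SD, n = 5, range 0.533 to 0.859), and with IgG2b 0.510 ± 0.0406% (SD, n = 5, range 0.467 to 0.571). The ranges of treated and control libraries overlapped in both experiments. Mbp was a large part of this share. It took 0.412% of reads in CD8a antibody replicate 2, where the members took 0.747%. In aged T replicate 4 it took 0.132%, where the members took 0.376%. Levels per kilobase of the longest annotated transcript put Mbp first in both experiments, at 5530 normalized counts per kilobase in the transfer and 6095 in the depletion experiment. Qdpr followed at 2106 and 2283, and Cnp, Trf, Car2 and Mal held the next 4 places in both, between 1228 and 1997. Klk6 and Sgk2 were lowest, at 7.82 and 7.38 in the transfer and 35.0 and 5.28 in the depletion experiment. Within the next 4 places neighbours lay within the spread of their libraries, as for Car2 at 1475 and Mal at 1442 in the transfer. The 2 tables were normalized separately, so these levels are not compared between experiments.

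In the transfer experiment no member passed the test, although nearly all of them lay a little higher in recipients of aged T cells. limma called 0 of 37 members, beside 0% of all genes tested, and the smallest adjusted p of a member was 0.600. edgeR, DESeq2 and limma-voom, run on the recovered reads, also called 0 members and 0 genes. At an unadjusted p under 0.05, 9 of 37 members lay higher, beside 4.29% of all genes tested, and 0 lay lower, beside 3.96% (8.25% of all genes in either direction). The log2 difference was above 0 for 35 of 37 members, beside 49.0% of all genes. The median was 0.29, a fold of 1.23, and the median over all genes tested was -0.0045. The libraries' mean member deviation from the young T mean had a within-group SD of 0.33. All 37 members lay above their young T mean in aged T replicate 2, and 0 did in young T replicate 4. Members thus moved together by library, and counts of members, here and below, are not counts of independent genes. Members ranged from -0.11 for Klk6 to 0.78 for Sgk2. For 0 members did the groups not overlap with all aged T libraries higher, beside 0.459% of all genes, and for 0 with all lower, beside 0.240%.

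In the depletion experiment the members lay higher with the CD8a antibody by a somewhat larger median, and again limma called none of them. It called 0 of 37 members, beside 0.00717% of all genes tested, which is the single gene Gpr101, and the smallest adjusted p of a member was 0.252, for Opalin. edgeR and limma-voom also called 0 members, and DESeq2 called 1, Opalin. In the authors' deposited table, 92 of 14024 genes with an adjusted p were called (0.656%, and 0.214% when only higher ones are counted), and Opalin was the member among them. The authors also used DESeq2, and its run here likewise called 92 of 14024 genes, so these 2 calls of Opalin are not independent. At an unadjusted p under 0.05, 20 of 37 members lay higher, beside 4.31% of all genes tested, and 0 lay lower, beside 4.15% (8.47% of all genes in either direction). The log2 difference was above 0 for 35 of 37 members, beside 49.6% of all genes. The median was 0.40, a fold of 1.32, and the median over all genes tested was -0.0020. The libraries' mean member deviation from the IgG2b mean had a within-group SD of 0.27. All 37 members lay above their IgG2b mean in CD8a antibody replicate 1, and 6 did in IgG2b replicate 3. Members ranged from -0.13 for Anln to 1.87 for Sgk2. The groups did not overlap for 1 member, Car2, with all antibody libraries higher, beside 0.782% of all genes, and for 0 with all lower, beside 1.27%.

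**Figure D1:**
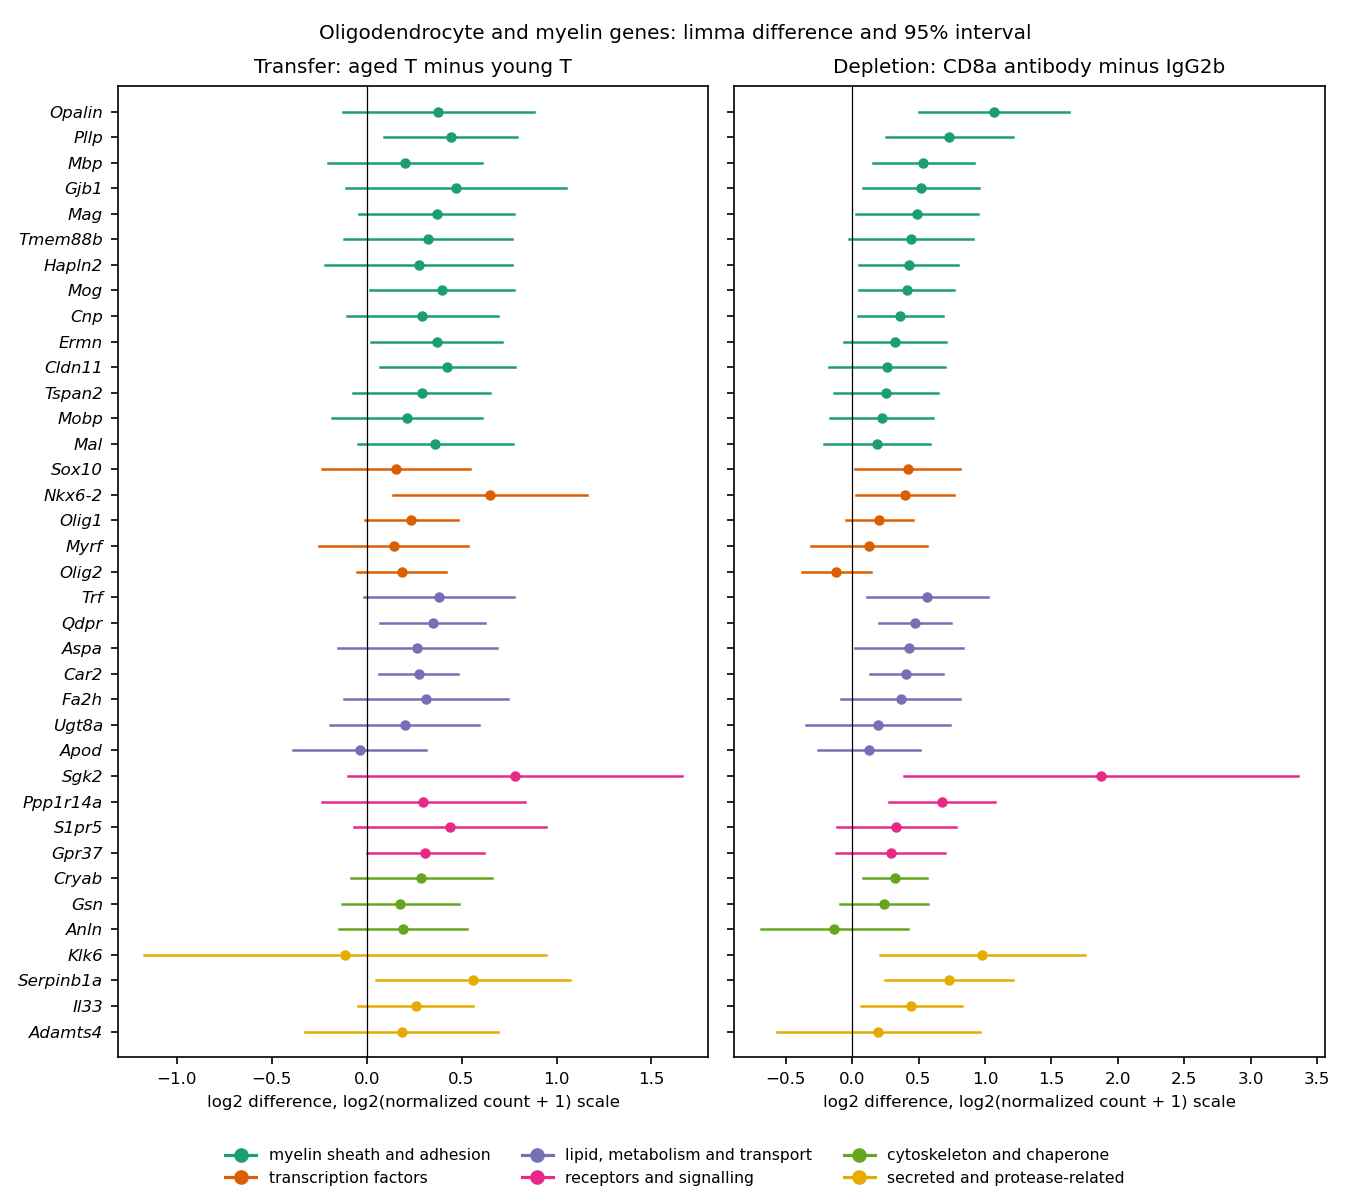
log2 difference between treated and control libraries for each of the 37 members, with its 95% confidence interval, in the transfer and in the depletion experiment, grouped by role. Points lie above 0 for 35 members in each experiment, and most intervals in the transfer include 0.

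The 2 experiments share no libraries. In 33 of 37 members the log2 difference was above 0 in both, beside 28.8% of the 13864 genes tested in both, and the exceptions were Apod and Klk6 in the transfer and Olig2 and Anln in the depletion experiment. At an unadjusted p under 0.05, 6 members lay higher in both, beside 0.346% of those genes, namely Car2, Mog, Nkx6-2, Pllp, Qdpr and Serpinb1a. The comparisons are of different kinds, donor age after the same antibody in the transfer and antibody against isotype control in the depletion experiment.

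A few libraries set much of the spread within groups. Within-group SDs of log2 values had a median of 0.369 over the members and 0.218 over all genes tested in the transfer, and 34 of 37 members were above the latter. The depletion experiment had medians of 0.350 and 0.257, with 32 of 37 members above. Aged T replicate 2 was the highest of its group in 28 of 37 members and aged T replicate 4 the lowest in 33. Young T replicate 1 was the highest of its group in 21 members, and young T replicates 3 and 4 were the lowest in 15 and 22. With the CD8a antibody, replicate 1 was the highest in 26 members, and replicates 5 and 2 were the lowest in 17 and 15. Among IgG2b libraries, replicate 1 was the highest in 21 members and replicate 3 the lowest in 18. The number of members higher at an unadjusted p under 0.05 in the transfer, 9 with all libraries, was 19 without aged T replicate 4 and 14 without young T replicate 1, beside 6.77% and 3.61% of all genes in the same fits. Just 3 were past that threshold without aged T replicate 2, beside 5.0% of all genes, and 4 when young T replicate 4 was left out, beside 2.58%. The count was 5 without aged T replicate 3 (3.14%), aged T replicate 5 (2.12%) or young T replicate 3 (6.37%). Under depletion the 20 became 10 without CD8a antibody replicate 1 (3.43% of all genes) or 4 (4.71%), 11 without IgG2b replicate 3 (3.30%) and 28 without CD8a antibody replicate 5 (7.22%). The median log2 difference stayed within 0.20 to 0.40 in the transfer and 0.30 to 0.46 in the depletion experiment when any 1 library was left out. Members also have shorter transcripts than other genes, with a median of 2492 bases against 3252. Without the trend of each library with transcript length, the medians were 0.25 and 0.34, and 4 and 14 members lay higher at an unadjusted p under 0.05, beside 2.07% and 4.92% of all genes.

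**Figure D2:**
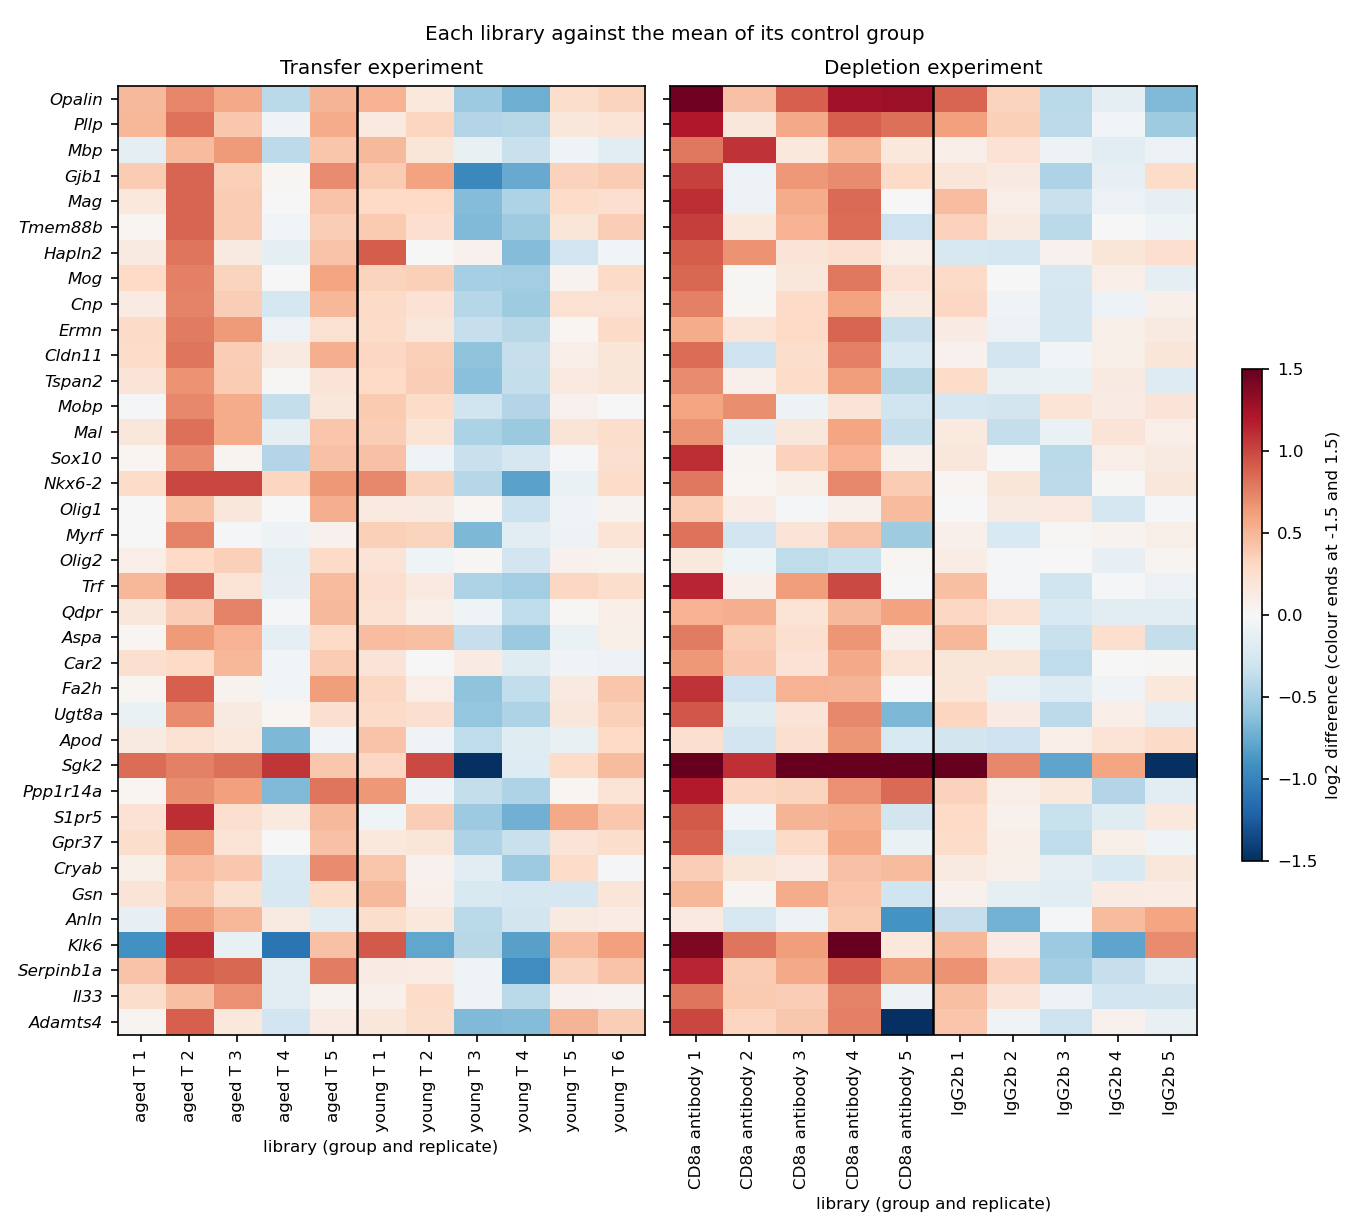
Deviation of each member (rows) from its control mean, on the log2 scale, in each library (columns) of both experiments. Aged T replicate 2 and CD8a antibody replicates 1 and 4 are high across most members, and young T replicates 3 and 4 are low.

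Genes of the myelin sheath and its adhesion formed the largest role, with 14 members. All 14 had a log2 difference above 0 in both experiments, beside 49.0% and 49.6% of all genes tested. Their medians were 0.37 in the transfer and 0.42 in the depletion experiment. At an unadjusted p under 0.05, 4 and 8 of them lay higher, beside 4.29% and 4.31% of all genes tested. The shares above 0 also apply to the counts of the other roles below. Mbp (chr18:82475146-82585637 in GRCm38) encodes myelin basic protein, which holds the cytoplasmic faces of the sheath together. Mbp stood at 22065, 33730, 37537, 18465 and 32237 normalized counts in aged T replicates 1 to 5, and in young T at a lowest of 19166, a median of 22820.4 and a highest of 33806. The groups overlapped, with aged T replicate 4 below every young T library, and the limma log2 difference was 0.20 ± 0.19 (SE) at an adjusted p of 0.763. With the CD8a antibody Mbp stood at 40398, 49541, 26002, 33076 and 26004, and with IgG2b at 25120, 27081, 22160.5, 21009 and 22005. Antibody replicates 1, 2 and 4 lay above all IgG2b libraries, and the limma log2 difference was 0.54 ± 0.18 (SE) at an adjusted p of 0.389.

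Pllp (chr8:94674894-94696278), which encodes plasmolipin, a proteolipid of the sheath, was among the members with the smallest p in both experiments. Pllp values in aged T were 851, 1056, 797, 579 and 887, and young T had a lowest of 445, a median of 674 and a highest of 752. Only aged T replicate 4 lay inside the young T range, and the limma log2 difference was 0.44 ± 0.16 (SE) at an adjusted p of 0.600. After depletion Pllp was at 1064, 517, 687, 857 and 820.3 with the antibody and at 705, 589, 352, 448 and 319 with IgG2b, a limma log2 difference of 0.73 ± 0.22 (SE) at an adjusted p of 0.347. Antibody replicates 2 and 3 lay inside the IgG2b range. Cldn11 (chr3:31149920-31164324), the tight junction protein of central myelin, stood at 1825, 2643, 1951, 1659.9 and 2197 in aged T against a lowest of 994, a median of 1668 and a highest of 1936 in young T. Aged T replicates 2, 3 and 5 were above the young T range, and the limma log2 difference was 0.42 ± 0.17 (SE) at an adjusted p of 0.600.

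Opalin (chr19:41061710-41077113), a transmembrane glycoprotein of mature oligodendrocytes, had the smallest p of the members in the depletion experiment. Opalin stood at 503, 246, 340.2, 436 and 445 normalized counts with the CD8a antibody and at 332, 229, 137, 165 and 115 with IgG2b. Antibody replicate 2 was the one library inside the IgG2b range, and IgG2b replicate 1 was the highest control. The means were 394 ± 101 and 196 ± 87.5 (SD, n = 5 each), and the limma log2 difference was 1.07 ± 0.26 (SE) at an adjusted p of 0.252. The authors' deposited table gives Opalin a log2 difference of 1.01, with the sign turned to antibody minus IgG2b, and an adjusted p of 0.0348. In the transfer Opalin had a log2 difference of 0.38 (limma adjusted p = 0.658), with aged T at 225 to 493 and young T at 179 to 426. The other sheath members are Mog and Mag, proteins of the outermost and innermost membranes, Mobp, Cnp, an enzyme of the cytoplasmic channels, Mal, Tspan2, Ermn, Hapln2, a link protein at nodes of Ranvier, Gjb1, a gap junction protein, and Tmem88b. Their log2 differences ran from 0.21 for Mobp to 0.47 for Gjb1 in the transfer and from 0.19 for Mal to 0.52 for Gjb1 in the depletion experiment.

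The region just before the start site of sheath genes is shown because the factors that drive them bind known short motifs. RefSeq promoter windows (GRCm38.p6) were found for 26 of 37 members, and the 250 bases before the start were searched on both strands for CTGGCAC, the core of the MYRF motif, for ACAAAG and ACAATG, both SOX motifs, and for the E-box CAGCTG. The lines give, 5′ to 3′ on the gene's strand, the windows of Opalin (chr19:41077114-41077363), the 3 members with the MYRF motif, Mag (chr7:30914864-30915113), Cnp (chr11:100574689-100574938) and Hapln2 (chr3:88027512-88027761), and Mobp (chr9:120149492-120149741), which has 6 copies of 1 motif. Opalin, Mag and Hapln2 lie on the minus strand, and Cnp and Mobp on the plus strand. Capitals mark every match, and a match on the other strand appears as its reverse complement.
Opalin: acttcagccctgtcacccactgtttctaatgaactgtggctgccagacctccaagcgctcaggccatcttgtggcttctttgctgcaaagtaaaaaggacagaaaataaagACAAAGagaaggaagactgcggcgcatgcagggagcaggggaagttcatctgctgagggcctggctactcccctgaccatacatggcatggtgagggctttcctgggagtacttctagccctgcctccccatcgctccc
Mag: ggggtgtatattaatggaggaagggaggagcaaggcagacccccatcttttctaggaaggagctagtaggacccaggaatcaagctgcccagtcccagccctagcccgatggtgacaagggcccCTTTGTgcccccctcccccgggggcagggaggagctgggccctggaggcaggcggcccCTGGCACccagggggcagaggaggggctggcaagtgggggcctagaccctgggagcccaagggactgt
Cnp: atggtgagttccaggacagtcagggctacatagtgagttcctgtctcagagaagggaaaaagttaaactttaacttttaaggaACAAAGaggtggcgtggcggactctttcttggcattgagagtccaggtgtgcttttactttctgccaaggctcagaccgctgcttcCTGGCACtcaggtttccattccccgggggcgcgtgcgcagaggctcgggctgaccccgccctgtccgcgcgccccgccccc
Hapln2: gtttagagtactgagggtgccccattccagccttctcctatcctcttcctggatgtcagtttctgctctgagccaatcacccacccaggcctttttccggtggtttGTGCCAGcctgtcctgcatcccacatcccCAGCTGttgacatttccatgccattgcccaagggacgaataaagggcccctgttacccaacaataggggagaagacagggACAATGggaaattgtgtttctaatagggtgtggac
Mobp: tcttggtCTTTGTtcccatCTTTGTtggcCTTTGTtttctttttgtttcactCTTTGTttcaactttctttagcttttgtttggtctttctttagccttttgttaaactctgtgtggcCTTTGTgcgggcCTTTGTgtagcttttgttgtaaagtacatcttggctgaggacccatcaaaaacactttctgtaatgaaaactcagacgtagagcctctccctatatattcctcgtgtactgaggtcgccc
In Opalin, Mag, Cnp and Mobp at least 1 capital run is ACAAAG or its reverse complement, and in Mag, Cnp and Hapln2 1 is CTGGCAC or its reverse complement. No matches in these windows overlap.

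Over all 26 member windows, CTGGCAC was found in 3 (11.5%), beside 4.83% of the 27025 genes with a window. ACAAAG was found in 8 (30.8%), beside 18.6%, and ACAATG in 6 (23.1%), beside 12.2%. CAGCTG was found in 3 (11.5%), beside 14.7%, and any of the 4 in 14 (53.8%), beside 41.2%. Among the 10551 tested genes with a window, the shares in the same order were 5.29%, 14.5%, 7.51%, 14.7% and 34.4%. For 21 of 26 members the first window ended in the first bases of a GENCODE transcript on the same strand. The windows shown for Mag, Cnp, Hapln2 and Mobp reach into the GENCODE span of the gene. A match is a description of the letters and no evidence of binding, and the windows were not tested against expression.

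Among the transcription factors, Sox10, Olig1, Olig2, Myrf and Nkx6-2, 5 of 5 had a log2 difference above 0 in the transfer and 4 of 5 in the depletion experiment, with medians of 0.18 and 0.21. Nkx6-2 (chr7:139579376-139582797), a homeobox factor of the lineage, was at 163, 269, 269, 167 and 211 in aged T and at a lowest of 76.1, a median of 144 and a highest of 220.5 in young T. Aged T replicates 2 and 3 lay above the young T range and all 5 above its median, and the limma log2 difference was 0.65 ± 0.24 (SE) at an adjusted p of 0.600. After depletion Nkx6-2 had a log2 difference of 0.40 (limma adjusted p = 0.538), with 3 antibody libraries above all IgG2b libraries. Sox10 (chr15:79154908-79165240), which keeps the lineage going from precursor to myelinating cell, stood at 622, 1003, 628, 450.2 and 827 in aged T and at a lowest of 483, a median of 592 and a highest of 829 in young T. Its groups overlapped, and the limma log2 difference was 0.15 ± 0.18 (SE) at an adjusted p of 0.814. With the antibody Sox10 was at 1213, 578, 716, 812 and 596, and with IgG2b at 632, 566, 426, 603 and 617, a limma log2 difference of 0.42 ± 0.18 (SE) at an adjusted p of 0.550. Antibody replicate 1 was the highest, and replicates 2 and 5 lay within the IgG2b range. Olig2, which is also active in precursors, was 0.18 in the transfer and -0.12 in the depletion experiment (limma adjusted p = 0.646 and 0.823), and Olig1 was 0.23 and 0.21. Myrf, the factor that switches on myelin genes, was 0.14 and 0.13, and in both experiments leaving out 1 library brought it below 0.

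The 7 members for lipids, metabolism and transport lay higher in 6 cases in the transfer and in 7 in the depletion experiment, with medians of 0.27 and 0.41. Car2 (chr3:14886273-14900770), the carbonic anhydrase abundant in oligodendrocytes, stood at 2821, 2935, 3385, 2332 and 3115 in aged T and at a lowest of 2115, a median of 2344 and a highest of 2749 in young T. Aged T replicate 4 was the only one below the highest young T library, and the limma log2 difference was 0.27 ± 0.10 (SE) at an adjusted p of 0.600. Car2 was at 3745, 3180, 2790, 3542 and 2752 with the antibody and at 2713, 2718, 1832, 2412 and 2415 with IgG2b. All antibody libraries lay above all IgG2b libraries, the closest pair being 2752 and 2718, and the limma log2 difference was 0.41 ± 0.13 (SE) at an adjusted p of 0.371.

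Qdpr (chr5:45434021-45450236), which recycles tetrahydrobiopterin, stood at 2879, 3294, 4261, 2511 and 3567 in aged T and at a lowest of 1960, a median of 2659 and a highest of 2995 in young T. Aged T replicates 2, 3 and 5 lay above the young T range, and the limma log2 difference was 0.35 ± 0.13 (SE) at an adjusted p of 0.600. With the antibody Qdpr stood at 3757, 3808, 3022, 3660 and 3996, and with IgG2b at 3249, 3077, 2243, 2337 and 2357. Antibody replicate 3 was the only one inside the IgG2b range, and the limma log2 difference was 0.47 ± 0.13 (SE) at an adjusted p of 0.311. Ugt8a (chr3:125865271-125938619), which makes the galactolipid galactosylceramide, stood at 533, 933, 629, 582 and 675 in aged T and at a lowest of 381, a median of 659.7 and a highest of 731 in young T, with 1 aged T library above that range. Its log2 difference was 0.20 (SE 0.18, limma adjusted p = 0.753). After depletion Ugt8a stood at 987, 455, 591, 857 and 323 with the antibody and at 646, 565, 393, 555 and 467 with IgG2b, a limma log2 difference of 0.20 ± 0.25 (SE) at an adjusted p of 0.864. The antibody libraries held both the highest and the lowest Ugt8a values. Fa2h, which hydroxylates the fatty acids of these lipids, was 0.31 and 0.36, Aspa, which splits N-acetylaspartate, 0.27 and 0.43, Trf, transferrin, 0.38 and 0.57, and Apod, a lipid carrier, -0.04 and 0.13.

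The 4 receptors and signalling members lay higher in both experiments, with medians of 0.37 and 0.50. S1pr5 (chr9:21242912-21248443), a sphingosine-1-phosphate receptor of mature oligodendrocytes, stood at 249, 462, 253, 236 and 299.8 in aged T and at a lowest of 129.7, a median of 240.3 and a highest of 317 in young T. Aged T replicate 2 alone lay above the young T range, and the limma log2 difference was 0.44 ± 0.24 (SE) at an adjusted p of 0.613. With the antibody S1pr5 was at 412, 211, 309, 317 and 178, and with IgG2b at 268, 226, 171, 191 and 242, a limma log2 difference of 0.33 ± 0.21 (SE) at an adjusted p of 0.691. Antibody replicates 1, 3 and 4 were above the IgG2b range and the other two within it. Ppp1r14a (chr7:29289308-29293801), an inhibitor of myosin phosphatase, stood at 504, 274, 278, 354 and 399 with the antibody and at 279.7, 237, 246, 163 and 195 with IgG2b. Antibody replicates 1, 4 and 5 lay above the IgG2b range, and the limma log2 difference was 0.68 ± 0.19 (SE) at an adjusted p of 0.311. In the transfer Ppp1r14a was 0.30 (limma adjusted p = 0.729). Gpr37, a receptor that restrains oligodendrocyte differentiation, was 0.31 and 0.29. Sgk2, a kinase, had the highest limma log2 difference in both experiments, 0.78 ± 0.41 and 1.87 ± 0.69 (SE), at low counts (limma adjusted p = 0.612 and 0.457). The authors' deposited table, with the sign turned, gives Sgk2 0.592 and 1.29. There Nkx6-2 is above it in the transfer, at 0.601. Sgk2 stood at 20.8 to 33.5 in aged T and at 3.54 to 31.6 in young T. Sgk2 was listed at 27.5, 12.3, 26.7, 19 and 28.4 with the antibody and at 25.9, 9.29, 2.61, 8.38 and 0 with IgG2b.

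Of the 3 cytoskeleton and chaperone members, Gsn, which severs actin, was 0.18 and 0.24, and Anln, an actin-binding scaffold, was 0.19 and -0.13. Cryab (chr9:50751325-50756636), the small heat shock chaperone alpha-B-crystallin, stood at 862, 1114, 1075, 692 and 1330 in aged T and at a lowest of 554, a median of 820.2 and a highest of 1080 in young T. The groups overlapped, and the limma log2 difference was 0.29 ± 0.17 (SE) at an adjusted p of 0.651. With the antibody Cryab stood at 1246, 1099.7, 1073, 1307 and 1345, and with IgG2b at 1058, 1020.4, 871, 825 and 1087. Antibody replicate 3 alone lay within the IgG2b range, and the limma log2 difference was 0.32 ± 0.11 (SE) at an adjusted p of 0.423.

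The 4 secreted and protease-related members had medians of 0.22 and 0.59. Serpinb1a (chr13:32842092-32851185), an inhibitor of serine proteases, stood at 154, 216, 209, 102 and 196 in aged T and at a lowest of 59.7, a median of 125 and a highest of 154 in young T. The log2 difference was 0.56 (SE 0.24, limma adjusted p = 0.600), with aged T replicate 4 lowest of its group. With the antibody Serpinb1a was at 220.4, 130.4, 148, 189 and 156, and with IgG2b at 159.7, 126, 69.5, 78 and 89.1, a limma log2 difference of 0.73 ± 0.23 (SE) at an adjusted p of 0.354. Antibody replicates 2, 3 and 5 lay below the highest IgG2b library. Il33 (chr19:29925114-29960718), an interleukin stored in the nuclei of oligodendrocytes and astrocytes, stood at 1093, 1248, 1467, 816 and 943 in aged T and at a lowest of 688, a median of 947 and a highest of 1101 in young T. Its log2 difference was 0.26 (SE 0.14, limma adjusted p = 0.618), and aged T replicates 2 and 3 were above the young T range. After depletion Il33 was at 1514, 1141, 1124, 1452 and 825 with the antibody and at 1186, 997, 818, 710 and 720.3 with IgG2b, a limma log2 difference of 0.45 ± 0.18 (SE) at an adjusted p of 0.510. Antibody replicates 1 and 4 lay above the IgG2b range. Klk6, a protease made by oligodendrocytes, was -0.11 in the transfer and 0.98 in the depletion experiment (limma adjusted p = 0.961 and 0.454), and Adamts4, a proteoglycan-cleaving protease of mature oligodendrocytes, was 0.18 and 0.20.

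**Figure D3:**
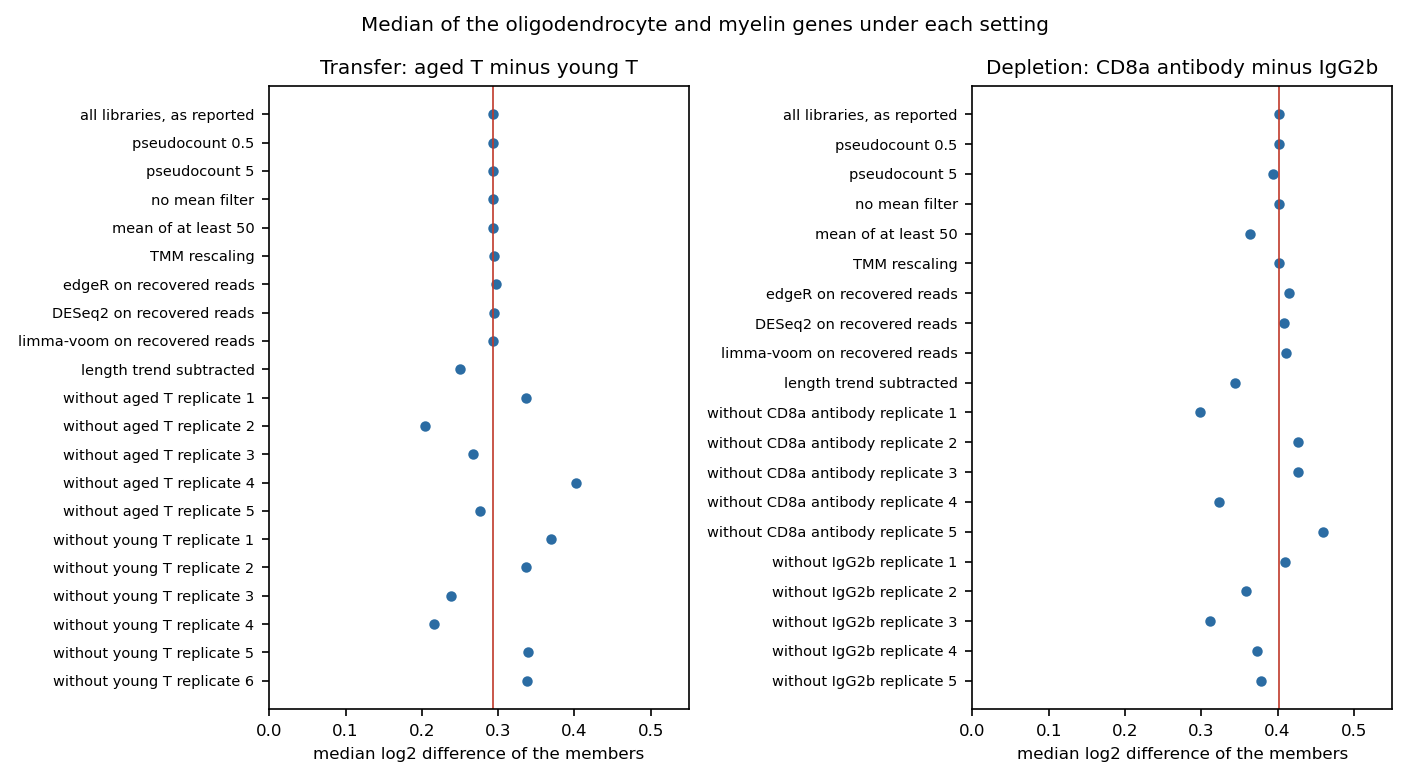
Median log2 difference of the members (points) under each processing alternative and with each library left out, for the transfer and the depletion experiment. All medians are above 0, from 0.20 to 0.40 in the transfer and from 0.30 to 0.46 in the depletion experiment.

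Other genes of the lineage were read from 4 lists, and limma called 0 of them in either experiment. Of all genes tested, 49.0% lay higher in the transfer and 49.6% in the depletion experiment. At an unadjusted p under 0.05, 4.29% of all genes lay higher and 3.96% lower in the transfer. In the depletion experiment these shares were 4.31% and 4.15%. Among genes of oligodendrocyte precursors, 3 of 12 lay higher in the transfer and 1 of 12 in the depletion experiment, with medians of -0.13 and -0.17. At an unadjusted p under 0.05, 1 lay higher and 2 lower in the transfer, and 0 higher and 1 lower in the depletion experiment. Those with the smallest p were Cspg4, a proteoglycan of precursors, at 193 ± 19.2 in aged T against 237 ± 27.5 in young T (log2 difference -0.29, limma adjusted p = 0.600), and Tnr, an extracellular matrix protein (-0.40, adjusted p = 0.600). After depletion they were Xylt1 (-0.54, limma adjusted p = 0.519) and Cspg4 (-0.29, adjusted p = 0.670). Among genes of newly formed oligodendrocytes, 5 of 11 tested lay higher in the transfer and 9 of 11 in the depletion experiment, with medians of -0.02 and 0.18. At an unadjusted p under 0.05 there were 0 in the transfer, and 1 higher and 1 lower in the depletion experiment. In the transfer Tmem163 was 0.38 and Itpr2 -0.22 (limma adjusted p = 0.600 and 0.628), and in the depletion experiment Tmem163 was -0.78 and Bcas1, an early myelin gene, 0.60 (limma adjusted p = 0.312 and 0.506).

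Of 42 other genes of mature oligodendrocytes, 33 lay higher in the transfer and 32 in the depletion experiment, with medians of 0.13 and 0.26, below those of the members. At an unadjusted p under 0.05, 3 and 10 of them lay higher, beside 4.29% and 4.31% of all genes. Those that lay lower were 1 and 0, beside 3.96% and 4.15%. Of the 42, the smallest p in the transfer were those of Zfp536 (-0.33) and Evi2a (0.40), at a limma adjusted p of 0.600 each. In the depletion experiment they were those of Ninj2 (1.04) and Evi2a (0.48), at a limma adjusted p of 0.366 and 0.409. Among 10 genes of disease-associated oligodendrocytes, 2 lay higher in the transfer and 8 in the depletion experiment, with medians of -0.07 and 0.38, and 0 and 6 of them lay higher at an unadjusted p under 0.05. Cd63, of the lysosome, was 0.28 and Nupr1 -0.33 in the transfer (limma adjusted p = 0.658 and 0.762). B2m, the light chain of class I antigen presentation, stood at 1383 ± 30.9 with the antibody against 976 ± 107 with IgG2b (SD, n = 5 each), and its log2 difference was 0.51 (limma adjusted p = 0.148). The authors' deposited table calls B2m, with an adjusted p of 0.000354. H2-D1, a class I heavy chain, was 0.52 (limma adjusted p = 0.311). These genes are also expressed by microglia and endothelium.

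**Figure D4:**
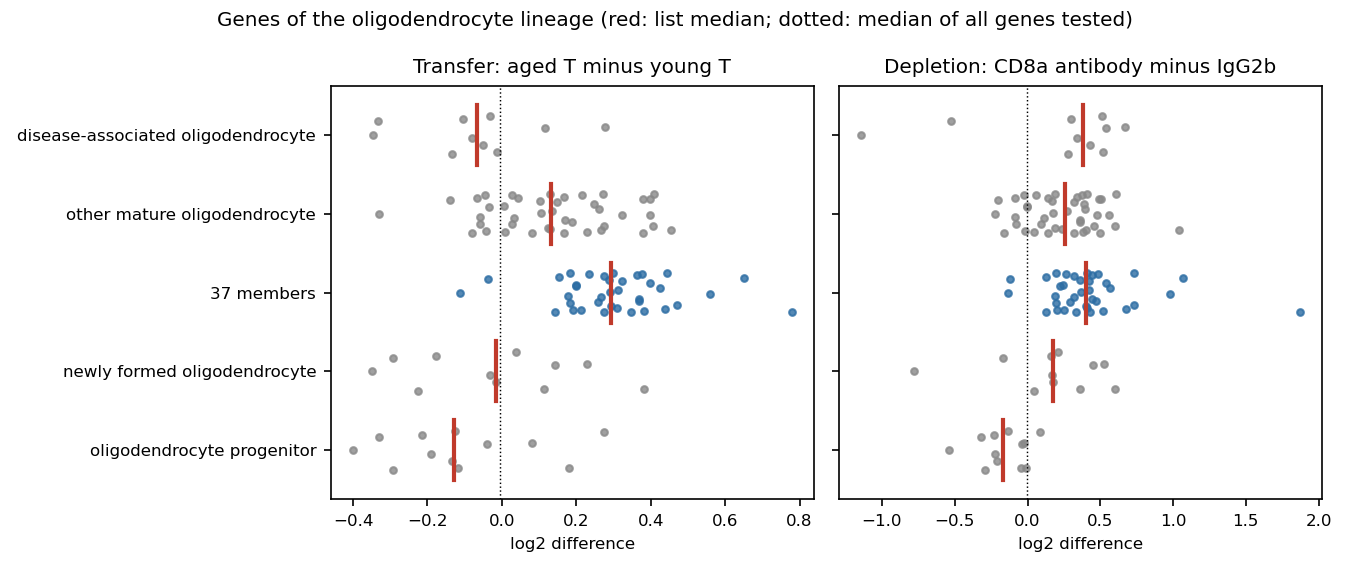
log2 difference of each gene (points) in the members and in 4 lists of other oligodendrocyte lineage genes, with the median of each list, in both experiments. Precursor genes have medians below 0 in both experiments and the members have the highest medians.

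Markers of other cells and of bordering tissue were read in the same fits, and limma called 0 of them in either experiment. In the transfer 3 ependymal, 3 fibroblast and 1 endothelial markers had an unadjusted p under 0.05, beside 8.25% of all genes tested. The depletion experiment had 5 microglia, 2 fibroblast and 1 each of ependymal, endothelial, neuronal and astrocyte markers past it, beside 8.47%. Their part in the members' differences was not tested. In the transfer, 6 of 6 ependymal markers lay higher in aged T (median 0.67), with summed levels of 281 to 788 against 233 to 453 normalized counts, and 7 of 8 choroid plexus markers (median 0.34), at 2276 to 53816 against 2914 to 34664. Thalamus markers lay higher in 3 of 6 (median 0.07), at 754 to 1858 against 640 to 1261. Fibroblast markers lay lower in 8 of 8 (median -0.86), at 1265 to 4131 against 1373 to 6619. Microglia markers lay higher in 6 of 8 (median 0.10), at 4878 to 7328 against 4850 to 6839. Neuronal markers lay higher in 2 of 8 (median -0.04) and astrocyte markers in 4 of 8 (median 0.005), with overlapping sums. In the depletion experiment, 8 of 8 microglia markers lay higher with the antibody (median 0.32), and their summed levels, 6478 to 7678 against 5436 to 6110, did not overlap. Neuronal markers lay higher in 1 of 8 (median -0.15), at 61494 to 87838 against 85181 to 95203. The lowest neuronal sum was that of antibody replicate 2, and the other antibody libraries stood at 82484 to 87838. Astrocyte markers lay higher in 5 of 8 (median 0.02), against 56875 to 65321 with IgG2b. Antibody replicate 2 had an astrocyte sum of 104702, and the other antibody libraries had 42913 to 65033. Ependymal markers were higher in 5 of 5 tested (median 0.54), choroid plexus markers in 8 of 8 (median 0.55) and thalamus markers in 3 of 5 (median 0.48), with overlapping sums. Fibroblast markers, lower in the transfer, were higher in 7 of 8 here (median 0.49), at 1015 to 2629 against 1293 to 2291, and endothelial markers in 7 of 8 (median 0.18), at 1942 to 2994 against 1920 to 2128. Endothelial markers were higher in 2 of 8 in the transfer (median -0.19), at 2348 to 3297 against 2472 to 4366. The 6 T cell markers together had 19 reads in the transfer and 52 in the depletion experiment over all libraries.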

How the data were processed

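Hippocampal RNA of 21 libraries was sequenced from polyA-enriched, strand-specific, paired-end libraries, per the labels' protocols. The submitters' processing notes name STAR, RSEM, DESeq2 and the mm10 build without versions. Annotation and counter settings are, for these files, not given in the sources used here. Per the file headers, the deposited tables hold a normalized signal, which is each gene's reads over the size factor of its library. They also hold the authors' log2 fold changes, p-values and a test score, signed control over treated. The sign was turned here, and the score was not used.

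The experiments were fitted separately and without covariates in R 4.3.3. limma 3.58.1 with a mean-variance trend was applied to log2(normalized count + 1) for genes with a mean of at least 10, and called at an adjusted p under 0.05. Whole reads were recovered by dividing each value by the smallest value of its library (relative tolerance 1e-06) and entered edgeR 4.0.16, DESeq2 1.42.0 and limma-voom as alternatives. Others were the pseudocount, the mean filter, TMM rescaling, subtraction of the trend with transcript length, and leaving out each library. Lengths and coordinates are from GENCODE M21 (GRCm38), which had all 37 members. Chi-square per degree of freedom between any 2 libraries of a group was 7.11 or more, so no library is a copy of another. It cannot show that they came from separate mice. Each library was counted as its own replicate. The tests were tried on simulated data.

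The members and lists were chosen with earlier results of these data known. Per-library values (lowest, median and highest for the 6 young T libraries) are given for the 6 members with the smallest p in each experiment and for 1 fixed gene per role, and from each lineage list the 2 genes with the smallest p are named. Replicate numbers follow the order of the sample records.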

Additional observations from a re-analysis of the deposited data

Results flagged for a closer look

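Within groups, 5 member values in 148 groups tested stood apart from the other libraries by more than Dixon's critical value, and chance gives about 1 in 20 groups. In the transfer, Opalin in aged T replicate 4 was at 225 normalized counts, and the next lowest aged T library was at 416. Aged T replicate 2 was the high one for Myrf, at 942 against 587 in the next library, and for S1pr5, at 462 against 299.8. Young T replicate 1 was high for Hapln2, at 278 against 155. In the depletion experiment, Myrf in IgG2b replicate 2 was low, at 474 against 563 in the next library.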

How the results depend on the processing

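No paired analysis was possible because the groups share no replicate numbers in the labels. Members called stayed at 0 in the transfer under every alternative run, and the median member difference stayed above 0 under every alternative run in both experiments. In the depletion experiment, genes called went from 1 to 0 with no mean filter and to 92 with DESeq2, which also called 1 member, Opalin (log2 difference 1.01, adjusted p 0.0348). Leaving out 1 library gave 0 to 25 genes called there, with 25 without CD8a antibody replicate 5, and 0 members called. Signs turned only when 1 library was left out. Over those fits the log2 difference ranged in the transfer from -0.27 to 0.13 for Klk6, from -0.0076 to 0.21 for Myrf and from -0.11 to 0.12 for Apod. In the depletion experiment it ranged from -0.048 to 0.29 for Myrf, from -0.0028 to 0.62 for Adamts4, from -0.0084 to 0.23 for Apod and from -0.31 to 0.058 for Anln. Klk6 was not tested without aged T replicate 2, where its mean fell under 10, and a mean of at least 50 left 35 members. The cause was not tested. Klk6 and Sgk2 had the lowest levels per kilobase of the members.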

Other observations

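In CD8a antibody replicate 2 the median member lay 0.08 above its IgG2b mean on the log2 scale, while Mbp lay 1.08 and Mobp, another basic protein of myelin, 0.70 above theirs. Sgk2, Klk6 and Hapln2 also lay well above the median member there. That library stood apart over all genes too. Its chi-square per degree of freedom against antibody replicates 1, 3 and 4 was 38.7 to 41.9, and among those it was 7.73 to 10.1. Antibody replicate 5 was also far from those, at 44.3 to 52.1. Its summed astrocyte markers were high and its neuronal markers low, as given above. In CD8a antibody replicate 1 the median member lay 0.83 above, Mbp 0.79 and Mobp 0.59. In the IgG2b group, replicates 1 and 2 had the highest Opalin values, 332 and 229, and the lowest Anln values, 672 and 519, and replicate 5 had the lowest Opalin value, 115, and the highest Anln value, 1289. These patterns were noticed in the values and were not tested.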
